A study of Mus musculus with 9 samples.

Results

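Titin, nebulin and 7 further genes of the Z-disc were followed in the newborn calf muscle of *Shank3Δ11(-/-)* and *Shank3(+/+)* mice. The members are Ttn, Neb, Actn2, Actn3, Tcap, Myoz1, Myoz2, Ldb3 and Myot. They were chosen by symbol, which makes 9 of the 55471 gene IDs in the count table, and all 9 passed the filter on low counts. RNA came from the gastrocnemius of 5 *Shank3Δ11(-/-)* mice (KO1 to KO5) and 4 wildtype *Shank3(+/+)* mice (WT1 to WT4), taken at postnatal day 0 to 1. The labels give the C57BL/6 background for all mice, while the methods of the study name heterozygous matings on C57BL/6JRj for the knock-out and C57BL/6 for wildtype, and do not say whether the mice were littermates. *Shank3Δ11(-/-)* denotes a homozygous deletion carried in all cells of the animal, so an effect cannot be assigned to the muscle fibre alone. The exact age and the sex of single mice are not stated. The genotypes were compared in 7 mice, with KO1, KO3 and KO5 on one side and the 4 wildtype mice on the other, since the study left KO2 and KO4 out of its own analysis for too few reads. The deposited totals do not show this shortage: no mouse had more counts than KO4, and KO2, at 28211941 counts, was above KO5, which was kept. The comparison was repeated with all 9 mice.

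The sarcomere is the contractile unit of striated muscle, and the Z-disc is the protein plate at which neighbouring sarcomeres meet. Thin actin filaments of both neighbours enter the Z-disc and are cross-linked there by alpha-actinin (Actn2, Actn3). Titin (Ttn) runs as a molecular spring from the Z-disc to the middle of the sarcomere, and nebulin (Neb) lies along the thin filament with its end in the Z-disc. Telethonin (Tcap) caps the titin ends, the myozenins (Myoz1, Myoz2) tie alpha-actinin to calcineurin, and Ldb3 (ZASP or cypher) and myotilin (Myot) bind alpha-actinin. In the newborn mouse the limb muscles are still maturing: embryonic and neonatal myosins are abundant and the adult fibre types are not yet separated.

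Library totals ranged from 26444372 counts in KO5 to 40471957 in KO4. Shank3, the targeted gene, lay between 25.7 and 35.04 CPM in *Shank3Δ11(-/-)* and between 32.4 and 38.5 CPM in *Shank3(+/+)*, a count over the whole gene that does not check the deletion. CPM are counts scaled to library size with TMM factors over the 9 mice. All 7 markers of the muscle fibre were present and summed to 55280 to 63223 CPM in every mouse. Of the 5 markers of heart muscle, where Actn2, Myoz2, Ldb3, Ttn and Tcap are also used, Nppa averaged 0.165 CPM and Myl7 0.0692 CPM. Tnni3 averaged 2.76 CPM and Ryr2 1.21 CPM, while Myh6 averaged 237 CPM. KO5 stood apart in several lists. Its slow fibre sum was the lowest at 2040 CPM against 2777 to 3829 CPM in the other 8 mice, its adipocyte sum was 1126 CPM against 186 to 403, and its Schwann cell sum was 411 CPM against 94.2 to 199. Its embryonic myosin Myh3 was at 2093 CPM against 4169 to 5781. KO1 had the highest red blood cell sum at 4353 CPM, and KO4 the highest cartilage sum at 203 CPM. In whole muscle fewer cells of a type and less RNA per cell cannot be told apart.

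Promoter sequence was found for 4 of the 9 genes in the RefSeq table for GRCm38.p6: Ttn, Actn2, Myoz2 and Ldb3. The 220 bases directly before the outermost start of each gene in GENCODE M21 were searched on both strands for the E-box (CANNTG), the TATA box (TATAAA), the MCAT element (CATTCC) and the MEF2 and CArG motifs. The promoters of Ttn, Actn2 and Ldb3 are shown because Ttn and Neb, and Actn2 and Ldb3, are the pairs that varied most closely together over the mice, as described further on. Each is written 5′ to 3′ on the minus strand of its gene, with the matched motifs in capitals:
Ttn, chr2:76982548-76982767: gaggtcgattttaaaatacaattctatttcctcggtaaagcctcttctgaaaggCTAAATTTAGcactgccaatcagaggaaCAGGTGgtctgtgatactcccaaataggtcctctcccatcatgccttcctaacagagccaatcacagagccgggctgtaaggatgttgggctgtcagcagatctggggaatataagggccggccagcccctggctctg
Actn2, chr13:12340761-12340980: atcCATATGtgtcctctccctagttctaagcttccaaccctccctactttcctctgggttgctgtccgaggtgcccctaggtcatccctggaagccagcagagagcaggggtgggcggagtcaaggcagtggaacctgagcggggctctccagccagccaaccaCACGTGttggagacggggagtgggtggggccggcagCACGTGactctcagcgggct
Ldb3, chr14:34588683-34588902: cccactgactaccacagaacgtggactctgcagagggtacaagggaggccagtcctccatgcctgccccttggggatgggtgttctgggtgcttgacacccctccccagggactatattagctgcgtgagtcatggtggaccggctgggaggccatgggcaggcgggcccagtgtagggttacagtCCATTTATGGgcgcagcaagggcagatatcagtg

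The Ttn window holds a MEF2 motif beginning 166 bases before the start and an E-box 138 bases before it. The Actn2 window holds 3 E-boxes, at 217, 56 and 20 bases, of which the 2 nearer ones have the same letters, CACGTG. The Ldb3 window holds a CArG motif 34 bases before the start. The window of Myoz2 held none of the 5 motifs. Among 32809 windows of the same length before the starts in the RefSeq table, 61.7% hold an E-box, 2.53% a MEF2 motif and 1.30% a CArG motif, so the E-box is the common and the CArG motif the rare one here. A match describes letters only.

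The levels of the 9 genes were compared per kilobase of exon, because raw CPM grows with the length of a transcript. Ttn (ENSMUSG00000051747, mm10 chromosome 2 from 76703980 to 76982547, minus strand) had the most counts, 110188 to 149492 per mouse, and 4307 ± 385 CPM (SD, n = 9). It is also by far the longest, with 116.8 kb of exon in 25 annotated transcripts, and per kb its level was the lowest of the 9 at 36.9 ± 3.30 CPM per kb (SD, n = 9). Neb (ENSMUSG00000026950, chromosome 2 from 52136647 to 52378474, minus strand) followed with 54.2 ± 6.46 CPM per kb (SD, n = 9), above Ttn in 9 of 9 mice. An antisense gene shares 0.388% of the exon bases of Ttn and another shares 0.169% of those of Neb, and whether the counting used strand is not known here.

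**Figure D1:**
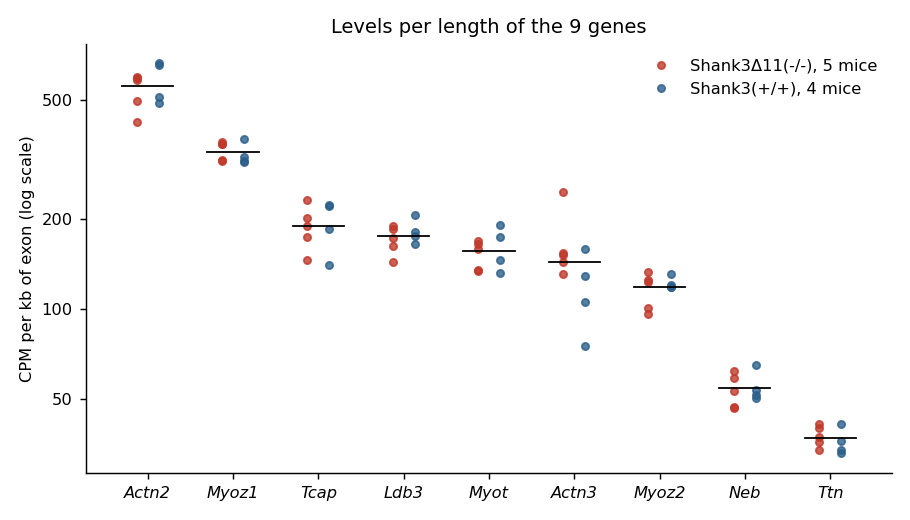
CPM per kb of exon (y axis, log scale) of the 9 genes (x axis, in order of their mean) in 5 *Shank3Δ11(-/-)* and 4 *Shank3(+/+)* mice, 1 point per mouse, with the mean over the 9 mice as a black line. Actn2 stands highest and Myoz1 second, the next 5 genes overlap with their neighbours, and Neb and Ttn lie below all others.

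The 2 alpha-actinins lay far apart in level. Actn2 (ENSMUSG00000052374, chromosome 13 from 12269426 to 12340760, minus strand), the form found in all fibres and in heart, was highest of the 9 at 556 ± 81.0 CPM per kb (SD, n = 9). Actn3 (ENSMUSG00000006457, chromosome 19 from 4861216 to 4877909, minus strand), which is used in fast fibres, reached 144 ± 46.8 CPM per kb (SD, n = 9) and was below Actn2 in every mouse. Per kb, the ratio of Actn3 to Actn2 ran from 0.154 in WT2 to 0.583 in KO5.

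The myozenins were ordered the same way in all 9 mice. Myoz1 (ENSMUSG00000068697, chromosome 14 from 20649107 to 20656540, minus strand), the fast fibre form, was at 335 ± 25.4 CPM per kb (SD, n = 9). Myoz2 (ENSMUSG00000028116, chromosome 3 from 123006206 to 123035015, minus strand), the form of slow fibres and heart, was at 118 ± 12.6 CPM per kb (SD, n = 9). The level of Myoz1 per kb was 2.33 to 3.70 times that of Myoz2. Per kb, the RNA of the fast myozenin thus lay above that of the slow one. The RNA of the general alpha-actinin lay above that of the fast one.

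The remaining Z-disc genes lay between these. Tcap (ENSMUSG00000007877, chromosome 11 from 98383811 to 98384953, plus strand), the shortest with 0.948 kb of exon, was at 190 ± 32.9 CPM per kb (SD, n = 9). Ldb3 (ENSMUSG00000021798, chromosome 14 from 34526603 to 34588682, minus strand) was at 176 ± 18.1 CPM per kb (SD, n = 9). Myot (ENSMUSG00000024471, chromosome 18 from 44334074 to 44355724, plus strand) was at 156 ± 20.7 CPM per kb (SD, n = 9). From the top the order was Actn2, Myoz1, Tcap, Ldb3, Myot, Actn3, Myoz2, Neb and Ttn. The ranges over the mice did not overlap between Actn2 and Myoz1, Myoz1 and Tcap, Myoz2 and Neb, or Neb and Ttn. From Tcap down to Myoz2 every gene overlapped with the next, and Tcap was above Ldb3 in only 6 of 9 mice. The middle of the order rests on the length taken: with the longest annotated transcript in place of all exons, Ldb3 ranked 3rd, Tcap 4th and Myoz2 5th, ahead of Myot and Actn3.

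How far each gene varied over the 9 mice differed widely. Myoz1 was the steadiest with a coefficient of variation of 7.60%, and Ttn followed with 8.94%. Actn3 was the most variable with 32.5%, which is higher than in 97.6% of the 10872 genes with a mean of at least 10 CPM, whose median was 11.9%. Actn3 spanned a 3.28-fold range, from 218 CPM in WT2 to 715 CPM in KO5. Tcap came next with 17.3%. Counting alone contributes little at this depth: the lowest count of any of the 9 genes was 3903, for Tcap in WT3.

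In *Shank3Δ11(-/-)* against *Shank3(+/+)*, Actn3 was the gene with the largest difference among the 9, and the only one with an unadjusted p below 0.05. Actn3 reached 447 CPM in KO1, 415 in KO3 and 715 in KO5, and at 305 in WT1, 218 in WT2, 374 in WT3 and 460 in WT4. The left-out mice had 379 CPM (KO2) and 440 CPM (KO4). WT4 was above KO1 and KO3, so the groups overlapped, and KO5 lay far above all others. The means were 526 ± 165 CPM (SD, n = 3) and 339 ± 103 CPM (SD, n = 4). The log2 fold change was 0.62 (standard error 0.26, 95% interval 0.03 to 1.21), with p = 0.0413 and FDR = 1.00 in edgeR's quasi-likelihood test and p = 0.143 in a 2-sided exact permutation test. With all 9 mice it was 0.50, with p = 0.0455 in edgeR and p = 0.103 in the exact permutation test.

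The call on Actn3 rests on single mice and on the filter. Without KO5 the log2 fold change in edgeR was 0.33 with a 95% interval of -0.23 to 0.90, which includes 0. The interval also included 0 without WT1 (0.58, -0.11 to 1.26) and without WT2 (0.46, -0.05 to 0.97). With the 7 mice but no filter on low counts it was -0.08 to 1.33, around a log2 fold change of 0.63. KO5 is also the mouse with the lowest slow fibre sum and the highest fast fibre sum, 17023 CPM against 14218 to 15727 in the other mice, and the part of these in the level of Actn3 was not tested. Xist was high in some mice of each genotype, and with its level as a covariate the log2 fold change of Actn3 was 0.55 (95% interval 0.10 to 1.005).

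For the other 8 genes no difference was detected. One of 9 genes had p below 0.05, against 2.08% of the 21809 genes tested, or 1.16% counted for higher levels alone, and with all 9 mice the background was 2.03%. None of the 9 had groups whose CPM did not overlap, against 2.84% of all genes tested. No gene of the whole table passed p below 0.05 with FDR below 25% in edgeR, while 453 had an unadjusted p below 0.05. DESeq2 passed 6 genes at that FDR and limma-voom 0. The 9 genes had a median log2 fold change of -0.07, and all genes tested a median of -0.01, with 3 of the 9 higher and 6 lower in *Shank3Δ11(-/-)*. This split rests on single mice: it was 7 higher and 2 lower without KO5, and 5 higher and 4 lower without WT3.

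**Figure D2:**
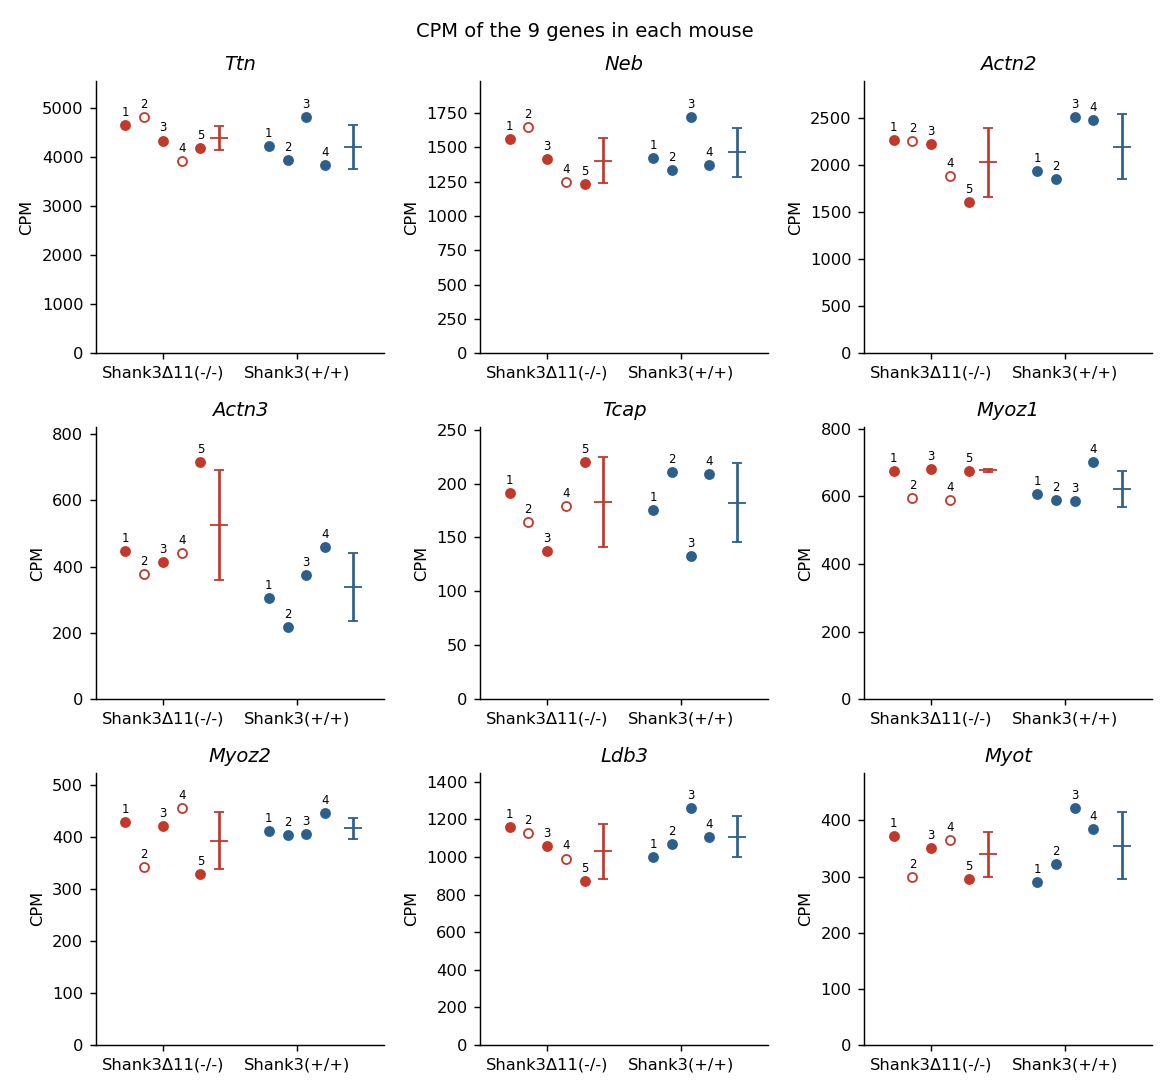
CPM (y axis, from 0) of each of the 9 genes in *Shank3Δ11(-/-)* and *Shank3(+/+)* mice, 1 point per mouse with its number. Open points are KO2 and KO4, and bars are the mean ± SD of the other mice. The 2 groups overlap in every panel, and KO5 stands apart in Actn3.

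Ttn was at 4661 CPM in KO1, 4339 in KO3 and 4181 in KO5, and at 4221, 3945, 4828 and 3836 in WT1 to WT4. The highest and the lowest of these 7 mice were both wildtype. The log2 fold change was 0.05 (95% interval -0.22 to 0.33), with p = 0.671 in edgeR and p = 0.543 in the exact permutation test. Neb was at 1561, 1415 and 1234 CPM in KO1, KO3 and KO5, and at 1422, 1334, 1724 and 1373 in WT1 to WT4. KO5 had the lowest Neb of the 7 and WT3 the highest, and the log2 fold change was -0.07 (95% interval -0.36 to 0.23), with p = 0.613 in edgeR and p = 0.657 in the exact permutation test.

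Actn2 was at 2262, 2214 and 1603 CPM in KO1, KO3 and KO5, and at 1937, 1849, 2510 and 2474 in WT1 to WT4. KO5, highest in Actn3, was lowest in Actn2. The log2 fold change was -0.12 (95% interval -0.49 to 0.24), with p = 0.474 in edgeR and p = 0.600 in the exact permutation test. Myoz1 was at 675, 682 and 674 CPM in KO1, KO3 and KO5, and at 608, 589, 587 and 701 in WT1 to WT4. These 3 *Shank3Δ11(-/-)* mice had an SD of 4.61 CPM and lay above all wildtype mice except WT4, but the left-out KO2 (595 CPM) and KO4 (588 CPM) lay among the wildtype mice. The log2 fold change of Myoz1 was 0.12 (95% interval -0.13 to 0.36), with p = 0.316 in edgeR and p = 0.143 in the exact permutation test.

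Myoz2 was at 429, 422 and 329 CPM in KO1, KO3 and KO5, and at 411, 404, 405 and 447 in WT1 to WT4. The wildtype mice were close together, and KO5 lay below them, as did the left-out KO2 (343 CPM), while KO4 (456 CPM) lay above them. The log2 fold change of Myoz2 was -0.09 (95% interval -0.36 to 0.17). Ldb3 was at 1158, 1057 and 874 CPM in KO1, KO3 and KO5, and at 1002, 1067, 1260 and 1106 in WT1 to WT4, with a log2 fold change of -0.12 (95% interval -0.41 to 0.18). Tcap had means of 183 ± 41.7 CPM (SD, n = 3) and 182 ± 36.5 CPM (SD, n = 4), and Myot of 339 ± 39.7 CPM (SD, n = 3) and 355 ± 59.4 CPM (SD, n = 4). KO5 had the lowest Ldb3, Myoz2 and Actn2 of the 9 mice.

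The intervals bound what these 7 mice could show. For the 8 genes other than Actn3 the 95% intervals together ran from -0.49 to 0.42 on the log2 scale, which is 0.711-fold to 1.34-fold. These bounds are the widest over the 8 genes, and single genes were bounded more closely, such as Myoz1 at 0.916-fold to 1.28-fold. The share of all counts that fell on the 9 genes was 1.09% ± 0.0756 (SD, n = 3) for the *Shank3Δ11(-/-)* mice and 1.10% ± 0.101 (SD, n = 4) for wildtype, from 0.947% in KO4 to 1.23% in WT3.

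**Figure D3:**
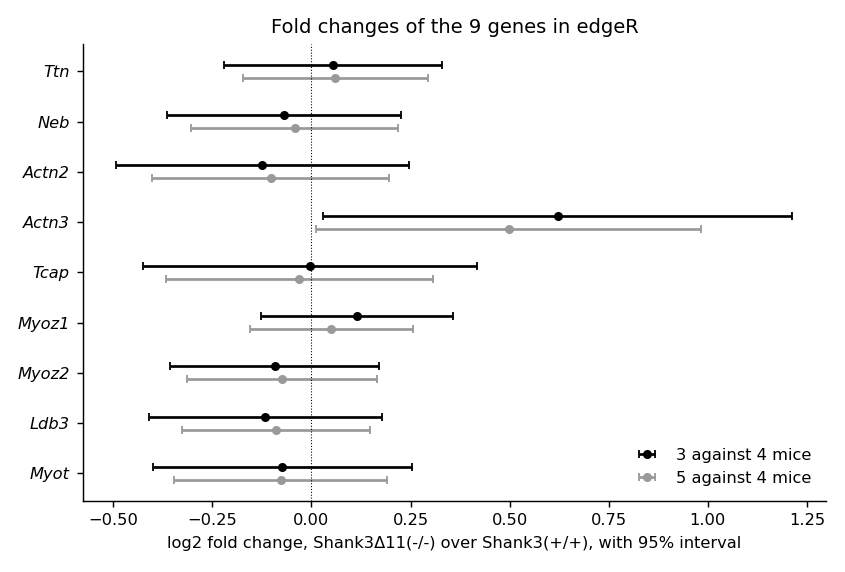
Log2 fold change of *Shank3Δ11(-/-)* over *Shank3(+/+)* (x axis) with its 95% interval from edgeR for each gene (y axis), for 3 against 4 mice (black) and 5 against 4 mice (grey). Only the intervals of Actn3 lie wholly above 0, from 0.03 to 1.21 and from 0.01 to 0.98, and both have an FDR of 1.00.

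A ratio of 2 genes within a mouse does not depend on the scaling of the library, and 4 ratios were compared: the 2 alpha-actinins, the 2 myozenins, titin to nebulin, and Ldb3 to myotilin. For KO1, KO3 and KO5 the log2 ratio of Actn3 to Actn2 CPM was -2.34, -2.42 and -1.16, and -2.66, -3.08, -2.75 and -2.43 in WT1 to WT4. Every one of these 3 *Shank3Δ11(-/-)* mice was above every wildtype mouse, KO3 by a margin of 0.01 over WT4. The difference was 0.76, or 1.69-fold, with p = 0.0286 in a 2-sided exact permutation test, which is the smallest p that 3 against 4 mice can give (0.0381 adjusted over the 4 ratios). The adjustment covers these 4 ratios and not all 36 pairs that the 9 genes can form. With KO2 (-2.57) and KO4 (-2.09) the groups overlapped, and the difference was 0.61 with an exact permutation p of 0.0476 (0.127 adjusted).

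For KO1, KO3 and KO5 the log2 ratio of Myoz1 to Myoz2 was 0.65, 0.69 and 1.03, and 0.56, 0.54, 0.53 and 0.65 in WT1 to WT4. The groups did not overlap, though KO1 and WT4 differed by less than 0.01, and the difference was 0.22 with the same smallest p of 0.0286 in the exact permutation test (0.0381 adjusted). KO2 and KO4, at 0.79 and 0.37, lay above and below all wildtype mice, and with them the difference was 0.14 with an exact permutation p of 0.365. The log2 ratio of Ttn to Neb was 1.58, 1.62 and 1.76 in KO1, KO3 and KO5, and 1.57, 1.56, 1.49 and 1.48 in WT1 to WT4. The difference was 0.13, or 1.09-fold, again with p = 0.0286 in the exact permutation test (0.0381 adjusted), and with KO2 (1.55) and KO4 (1.66) it was 0.11 with p = 0.0635. For Ldb3 to Myot the difference was -0.06 with an exact permutation p of 0.457, and the groups overlapped.

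**Figure D4:**
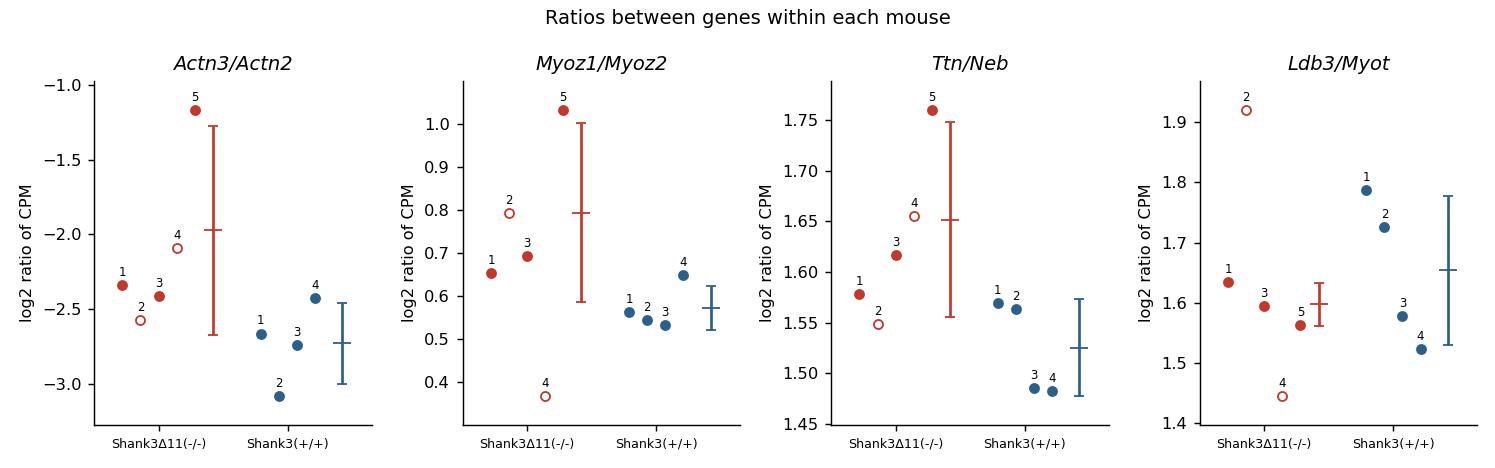
Log2 ratio of CPM within each mouse (y axis) for 4 pairs of genes, 1 point per mouse with its number, in *Shank3Δ11(-/-)* and *Shank3(+/+)*. Open points are KO2 and KO4, and bars are the mean ± SD of the other mice. In the first 3 panels the filled *Shank3Δ11(-/-)* points lie above all wildtype points, with KO5 highest, and the open points do not all do so.

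Of the 36 pairs that the 9 genes can form, 3 had ratios that did not overlap between the 7 mice, and they are the 3 just described. The share of pairs without overlap among the 1628 genes of at least 100 CPM was 1.53%. With all 9 mice no pair of the 9 genes was without overlap, against 0.321% of all such pairs. In each of the 3 ratios KO5 was the highest of the 9 mice. The summed adipocyte markers also did not overlap between the genotypes in the 7 mice, at 381, 289.3 and 1126 CPM in KO1, KO3 and KO5 and 211 to 288.6 CPM in wildtype, and overlapped with KO2 (186 CPM). Most of that sum was Fabp4. The defining markers Adipoq and Plin1 were below 1 CPM in KO3, at 9.01 and 4.41 CPM in KO1, and at 78.6 and 33.7 CPM in KO5. The highest wildtype values were 1.71 and 0.853 CPM, both in WT3. The slow fibre sum was 2777, 3232 and 2040 CPM in KO1, KO3 and KO5 and 2991 to 3829 CPM in wildtype. These groups overlapped, with an exact permutation p of 0.0857. KO2 had 2833 CPM and KO4 3357 CPM. The part of the adipocyte and slow fibre markers in the ratios was not tested. Without KO5 the differences were 0.35 for Actn3 to Actn2, 0.10 for Myoz1 to Myoz2 and 0.07 for Ttn to Neb.

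Over the 9 mice the closest correlations were those of Actn2 with Ldb3, Ttn with Neb, and Neb with Ldb3. Of the 36 pairs, 21 correlated positively and 15 negatively, with a median Pearson r of 0.08. After adjustment over the 36 pairs, 3 had p below 0.05 by Pearson r and 0 by Spearman rho, while 5 had an unadjusted p below 0.05 by r. The closest pair was Actn2 and Ldb3, with r = 0.89 (exact permutation p = 0.0014, adjusted 0.0354) and rho = 0.85 (exact permutation p = 0.0061, adjusted 0.0992). KO5 was lowest and WT3 highest in Ldb3, and the same 2 mice were lowest and highest in Actn2. Without KO5 and WT2, the mice farthest from the median of Actn2, r was 0.87, and within the genotypes it was 0.89.

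Ttn and Neb, the 2 giant proteins, had r = 0.87 (exact permutation p = 0.0037, adjusted 0.0446) and rho = 0.83 (exact permutation p = 0.0083, adjusted 0.0992). Both were highest in WT3 and KO2, and without these 2 mice r was 0.69 with an exact permutation p of 0.0861, so much of the relation rests on them. Within the genotypes r was 0.94, with single mice left out 0.82 to 0.93, and in the 7 mice 0.80. Neb and Ldb3 had r = 0.86 (exact permutation p = 0.0020, adjusted 0.0354) and rho = 0.83 (exact permutation p = 0.0083, adjusted 0.0992), and r = 0.79 without the same 2 mice. In the 7 mice of the genotype comparison none of the 36 pairs had an adjusted p below 0.05, the lowest being 0.0881.

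Tcap correlated negatively with Ttn (r = -0.61), Neb (-0.63), Actn2 (-0.54), Ldb3 (-0.53), Myot (-0.36) and Myoz2 (-0.13), and positively with Myoz1 (0.27) and Actn3 (0.15). None of these had p below 0.05 by r, the lowest exact permutation p being 0.0710 for Neb. By rank, Tcap and Neb had rho = -0.75 (exact permutation p = 0.0255, adjusted 0.184) and Tcap and Ttn rho = -0.68 (exact permutation p = 0.0503, adjusted 0.259). Tcap was at 133 CPM in WT3, which had the highest Neb and Ldb3, and at 220 CPM in KO5, which had the lowest. For the 2 isoform pairs r rested on single mice. Actn2 and Actn3 had r = -0.13 over the 9 mice, -0.51 without WT2 and 0.58 without KO5. Myoz1 and Myoz2 had r = 0.07, and from -0.13 to 0.42 with single mice left out. The fast forms Actn3 and Myoz1 had r = 0.60 with an exact permutation p of 0.0816.

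**Figure D5:**
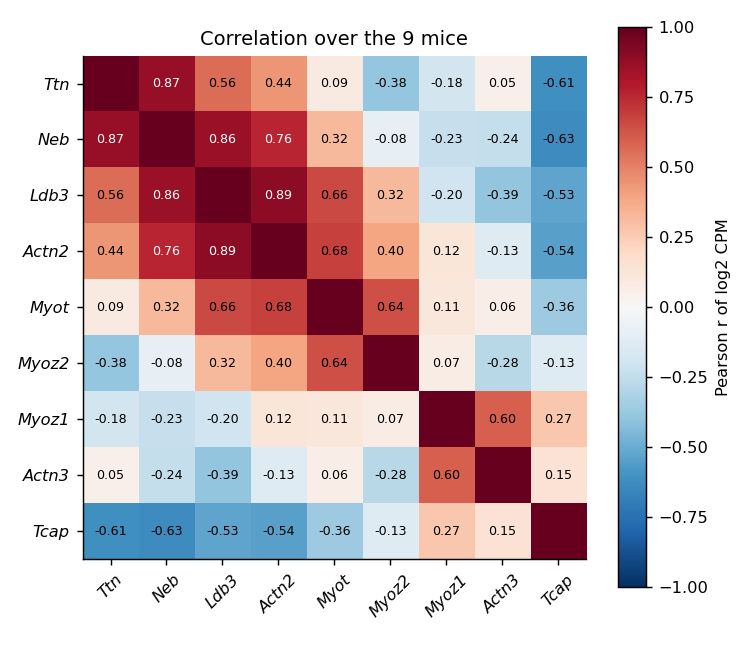
Pearson r of log2 CPM over the 9 mice for each pair of the 9 genes (colour, from -1 in blue to 1 in red, with the value printed). The values among Ttn, Neb, Ldb3 and Actn2 run from 0.44 to 0.89, and those of Tcap with these 4 from -0.63 to -0.53.

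Other measures of the mice moved with these genes, and were chosen after the values had been seen. The difference in mean log2 CPM between genes with at least 8 kb and genes with at most 1.5 kb of exon, centred over the mice, was highest in KO2 (0.24) and lowest in WT4 (-0.33). Its r with Ttn was 0.83 and rho 0.78 (exact permutation p = 0.0057 and 0.0172, adjusted 0.0661 for r over 27 relations), and r was 0.71 without KO2 and WT4. With Neb it had r = 0.66 and rho = 0.67 (exact permutation p = 0.0546 and 0.0589, adjusted 0.193 for r), and r = 0.75 without KO2 and WT4. Apart from that with Neb, the relations given are those of the 27 with an exact permutation p below 0.05 by r. Myh3, the embryonic myosin, had r = 0.85 and rho = 0.72 with Actn2 (exact permutation p = 0.00096 and 0.0369, adjusted 0.0260 for r), and r = 0.70 without KO5 and WT3. With Ldb3 it had r = 0.83 and rho = 0.70 (exact permutation p = 0.0073 and 0.0433, adjusted 0.0661 for r), but r = 0.30 without KO5 and WT3, so that relation rests on these mice. The muscle fibre sum had r = 0.69 and rho = 0.92 with Actn3 (exact permutation p = 0.0325 and 0.0013, adjusted 0.153 for r), and r = 0.62 without KO5 and WT4. With Myoz1 it had r = 0.80 and rho = 0.55 (exact permutation p = 0.0121 and 0.133, adjusted 0.0818 for r), and again r = 0.62 without KO5 and WT4. Myh3 with Myot had r = 0.64 and rho = 0.73 (exact permutation p = 0.0340 and 0.0311, adjusted 0.153 for r), and r = 0.53 without KO5 and WT3. The part of these measures in the correlations between the 9 genes was not tested.

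The genes most like each of the 9 over the mice were taken among 10871 others of at least 10 CPM, by Pearson r of log2 CPM over the 9 mice, as a description. Ttn was followed most closely by Zdhhc5 (r = 0.95), Cdk12 (0.94) and Rab11fip3 (0.94), and Neb by Svil (0.98), which encodes the actin-binding protein supervillin, Ube3c (0.97) and Exoc3 (0.97). Actn2 was followed by Galnt17 (0.97), Srf (0.97), which encodes serum response factor, and Sec14l1 (0.96), and Ldb3 by Ago2 (0.95), Irs1 (0.94) and Nrip1 (0.94). For Actn3 they were Trim16 (0.93), Lpin1 (0.92) and Eef1a2 (0.91), and for Tcap Upf3a (0.95), Rpp25l (0.94) and Sap30l (0.94). Myoz1 had the loosest followers, with Atg101 (0.91), Gm49721 (0.88) and Cacng1 (0.86), a subunit of the muscle calcium channel. Myoz2 was followed by Plp2 (0.95), the pseudogene CT485613.4 (0.93) and Otulin (0.92), and Myot by the pseudogene Gm9118 (0.96), Dusp22 (0.95) and Hmgxb4 (0.94). None of the 9 was among the 3 genes most like another of them.

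Of 48 other genes of the Z-disc and thin filament, all were tested, 18 were higher and 30 lower in *Shank3Δ11(-/-)*, and 0 had p below 0.05 in edgeR, against 2.08% of all genes tested. Their median log2 fold change was -0.04, and with all 9 mice 17 were higher, 31 lower and again 0 had p below 0.05. By DESeq2 it was 1, Csrp3, against 393 of all 21809 genes tested. The smallest p among the higher ones belonged to Myoz3, the third myozenin of fast fibres, at 21.8 ± 5.99 CPM (SD, n = 3) and 15.5 ± 4.98 CPM (SD, n = 4), a log2 fold change of 0.49 with p = 0.0923 in edgeR and p = 0.200 in the exact permutation test. Capn3, a protease bound to titin, had 0.13 (p = 0.242 in edgeR, exact permutation p = 0.143) and Smpx, a small muscle protein, 0.09 (p = 0.372 in edgeR, exact permutation p = 0.171). Among the lower ones Csrp3, the muscle LIM protein of slow fibres and heart, was at 208 ± 87.0 CPM (SD, n = 3) and 310 ± 89.4 CPM (SD, n = 4), a log2 fold change of -0.59 with p = 0.111 in edgeR and p = 0.229 in the exact permutation test. KO5 had the lowest Csrp3 of the 9 mice at 111 CPM and the highest Myoz3 at 26.9 CPM. Smyd1, a methyltransferase of myofibril assembly, had -0.19 (p = 0.178 in edgeR, exact permutation p = 0.314) and Fhl1, a LIM protein, -0.20 (p = 0.213 in edgeR, exact permutation p = 0.229).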

How the data were processed

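RNA of the gastrocnemius of 9 mice was sequenced, 1 library per mouse. The deposited values are raw read counts per Ensembl gene, which the authors obtained by mapping with HISAT2 to mm10 and counting with featureCounts, without normalization. Which annotation release and strand setting were used, and how multi-mapping reads were treated, is not stated. Library totals had a median of 31435732 counts.

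Low counts were removed by filterByExpr of edgeR (count of 10, total of 15), leaving 21809 tested genes in 7 mice and 21735 in 9. The rest were normalized by TMM and tested with the robust quasi-likelihood test of edgeR 4.0.16 in R 4.3.3, with Benjamini-Hochberg adjustment (FDR) over all genes tested. FDR below 25% follows the study's criterion. Exact permutation tests over all splits or pairings of the mice, all 2-sided, used log2 CPM with a prior count of 2 in Python 3.11.15. The smallest p they allow is 0.0286 with 3 and 4 mice, and 0.00794 with 5 and 4. The p-values judge a difference or a correlation against the variation between these mice.

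Symbols, found for 55144 IDs, positions and exon lengths came from GENCODE M21 (mm10), and promoters from RefSeq (GRCm38.p6). The members, the gene lists and the marker lists were chosen with earlier results of these data known. Named beside the 9 members were, of the 48 other Z-disc and thin-filament genes, those with p below 0.05 and the 3 of smallest p in each direction, and the 3 genes most correlated with each member. Alternatives were all 9 mice, other normalizations, no filter, DESeq2 1.42.0, voom in limma 3.58.1, the replicate number as a block, Xist as a covariate, and leaving out single mice. The tests were tried on simulated data.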

Additional observations from a re-analysis of the deposited data

Results flagged for a closer look

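The level of Actn3 in KO5 was flagged as a sample far from the others of its group. It was 715 CPM, against 379 to 447 CPM in the other 4 *Shank3Δ11(-/-)* mice. Of 28 groups of values examined by Dixon's criterion this was the only 1 past the limit, and chance gives about 1 in 20. In the same mouse Actn2 (1603 CPM), Myoz2 (329 CPM) and Ldb3 (874 CPM) were lower than in any of the other 8 mice, and Tcap (220 CPM) was higher.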

How the results depend on the processing

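Under the alternatives Actn3 and Myoz1 stayed higher and Ldb3 lower in *Shank3Δ11(-/-)*, and no member passed FDR below 25%. Members with p below 0.05 fell from 1 to 0 without the filter, KO5, WT1 or WT2. Without the filter 972 genes had p below 0.05 and 1 passed FDR below 25%, and 1149 genes did not overlap. DESeq2 passed 6 genes, and 1 of the 48 other genes (Csrp3) had p below 0.05, against 393 of all 21809 tested. With Xist as a covariate 1 gene passed, and 1 of the 48 (Myoz3) had p below 0.05, against 594 of all 21809 tested. With all 9 mice 149 genes did not overlap, and the log2 ratio differed by 0.14 for Myoz1 to Myoz2 and 0.11 for Ttn to Neb.

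The replicate numbers were not taken as pairs, since the labels do not say that they pair the mice. Deviations of same-numbered mice from their group means correlated with r = 0.37, 0.05, 0.36 and 0.10. KO1, KO3 and KO4 were each most like the wildtype mouse of their own number, and KO2 was most like WT1, a hint from the data and not from the design. With the replicate number as a block, 844 of 21809 genes had p below 0.05 in 7 mice and 452 of 21735 in 9. At FDR below 25% 9 and 2 passed, and 0 and 1 (Myoz3) of the 48 had p below 0.05. The log2 fold change of Actn3 was 0.35 with the block and 0.62 without it in 7 mice, and 0.36 and 0.50 in 9, and its blocked unadjusted p in edgeR stayed below 0.05 in both. In the 7 mice only KO1 with WT1 and KO3 with WT3 share a number, so that blocked value rests on them. KO5 has no wildtype mouse of its number, so neither blocked fold change draws on its level. With the block in 7 mice 6 members were higher and 3 lower, and the log2 fold change turned to -0.0098 for Ttn, 0.017 for Actn2, 0.081 for Tcap, 0.054 for Myoz2 and 0.041 for Myot, and in 9 mice to 0.00353 for Neb. That of Tcap was 0.00182 with RLE size factors, 0.00122 without the filter, 0.00191 in DESeq2 and 0.025 with Xist. None of these changes of sign had p below 0.05. The share of counts differed by 0.000606 percentage points outside mitochondrial genes. The cause of these shifts was not tested.

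Leaving out each mouse in turn gave 224 of 22230 genes (without KO5) to 968 of 22247 (without KO1) with p below 0.05, and 0 to 15 at FDR below 25%. Members with p below 0.05 numbered 0 to 1. Of the 48 genes 0 to 5 had p below 0.05. The 5 (Fhl1, Lmod2, Myoz3, Ankrd2 and Nrap) came without KO1, against 968 of all 22247 genes in that fit. Genes without overlap numbered 1098 to 2677. The log2 ratio differed by 0.35 to 0.98 for Actn3 to Actn2, 0.10 to 0.29 for Myoz1 to Myoz2 and 0.072 to 0.16 for Ttn to Neb, where 6 mice allow no exact p below 0.0667. Log2 fold changes ranged from -0.15 to 0.027 for Neb, -0.21 to 0.017 for Actn2, -0.16 to 0.16 for Tcap, -0.16 to 0.017 for Myoz2 and -0.15 to 0.030 for Myot, and the share from -0.047 to 0.034 percentage points.

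Correlations with adjusted p below 0.05 numbered 0 in 7 mice, 0 by Spearman rho, 0 without the 2 mice farthest from the median, and 0 to 4 without each mouse in turn. By the longest transcript the levels were 40.3 (Ttn), 64.0 (Neb), 700.0 (Actn2), 491 (Myoz1), 168 (Myoz2) and 209 (Ldb3) CPM per kb. Depth did not limit any member, the lowest count being 3903.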

Other observations

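KO5, singled out after its values were seen, also differed from the other mice within the lists of fibre markers. Of the 7 slow fibre markers, 6 were lowest in KO5 among the 9 mice, among them the slow myosin Myh7 (335 CPM against 484 to 866) and the slow troponins Tnnt1 (500 CPM against 610 to 855), Tnni1 (331 CPM against 480 to 715) and Tnnc1 (239 CPM against 311 to 485). Myl2, a slow myosin light chain, was at 210 CPM in KO5, within the range of the other mice. The neonatal myosin Myh8 was highest in KO5, at 19500.0 CPM against 13555 to 17125, and of the 3 fast troponin genes Tnnt3 (7241 CPM) and Tnnc2 (2428 CPM) were highest there, while Tnni2 (2965 CPM) was higher in KO4 (3006 CPM). The adult fast myosins Myh1, Myh2 and Myh4 and the calcium pump gene Atp2a1 lay within the range of the other mice.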
